A study of Mus musculus with 16 samples.

Results

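E14Tg2A cells, a wild-type mouse embryonic stem cell line, that had received 200 µM NiCl2 for 4 days were compared with untreated cells of the same day. The samples were chosen by title and treatment label, and they are 4 of the 16 libraries of the series: 2 of nickel-treated cells and 2 of untreated cells. All cells of both groups grew on serum medium with LIF, the cytokine that holds such cells undifferentiated. They were passaged at a regular interval of days, and nickel was given afresh at each passage. RNA was sequenced after poly(A) selection with a strand-keeping kit. The other nickel groups used beside them are 100 µM and 150 µM on day 4, which share the untreated day 4 libraries, and 200 µM on day 6 with its own untreated libraries. E14Tg2A is 1 cell line, so every group is a culture of the same genotype.

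Nickel ions are known to compete with iron in oxygen-dependent enzymes, among them the prolyl hydroxylases that mark hypoxia-inducible factor (HIF) for destruction. Stabilised HIF switches on genes of glucose uptake, glycolysis and lactate export, and genes of collagen hydroxylation. Embryonic stem cells rest on a network of pluripotency factors such as NANOG and OCT4, and they respond to FGF, Nodal and LIF signals. The title of the series asks about the repression of developmental genes under nickel.

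Single-gene values come from the authors' deposited table of the comparison. It lists 1 RPKM per group, a read count scaled for transcript length and library total, in which both libraries are pooled. After each log2 fold change, nickel over control, stands the standard error that its p-value in that table implies. The spread between the 2 libraries of a group cannot be shown, and groups cannot be checked for overlap. No label states that replicates were grown as separate cultures, so the p-values could reflect technical variation alone. Steps in the RPKM of low single-exon genes placed the scaling totals of the libraries at 47.4 and 57.0 megareads in nickel and at 43.2 and 51.1 megareads in control. The embryonic stem cell identity of the label held: 10 marker genes summed to RPKM 7344 in nickel and 6241 in control, with none at 0. Dppa5a alone gave 4260 and 3670 of these sums. Pou5f1, which encodes OCT4, stood in the authors' deposited table at RPKM 769 in nickel against 695 in control (log2 fold change 0.21 ± 0.10, adjusted p = 0.221). Of 10 fibroblast markers, 6 were listed at 0 in nickel and 5 in control, Col3a1, Dcn, Lum, Postn and Fap in both groups. The 5 tested members summed to RPKM 6.28 in nickel and 12.9 in control, and 1 of them, Thy1, fell. The highest member value was 4.15 in nickel and 10.8 in control. The markers of muscle and heart summed to RPKM 18.6 in nickel and 16.5 in control, and those of blood and endothelium to 29 in nickel and 35.2 in control, of which Pecam1 alone, a gene that embryonic stem cells also express, gave 24.9 and 27.7. In the muscle and blood lists 1 gene each fell, Actn2 to 0.446 against 1.49 and Tek. Neuron markers summed to 166 in nickel and 237 in control, and 2 of 9 tested fell, Stmn2 to 129 against 192 and Gap43 to 3.12 against 7.04. The endoderm list, also set as a check for other cells, summed higher, to 378 in nickel and 464 in control. Of these sums Apoe gave 253 and 354. The trophectoderm list summed to 123 in nickel and 117 in control.

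On this background, 1542 of 19480 tested genes passed an adjusted p of 0.05 in the authors' deposited table, which is 7.92%. Of these, 807 rose (4.14% of the genes tested) and 735 fell (3.77%). Most shifts were modest: the median change was 1.61-fold among the genes that rose and 1.67-fold among those that fell. A change of at least 1 on the log2 scale was reached by 232 genes that rose and 279 that fell. The median log2 fold change over all tested genes was 0.01. Scaling between libraries, as DESeq2 applies it, holds this level near 0, so a shift common to all genes cannot be seen. At a mean RPKM of at least 1, 6.18% of genes rose and 5.22% fell. The counts of list members given below are to be read beside these shares. By RPKM difference, the near-identical pair Rps27 and Rps27rt came first, followed by Tdgf1, Slc2a3, mt-Nd6 and Actb.

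**Figure D1:**
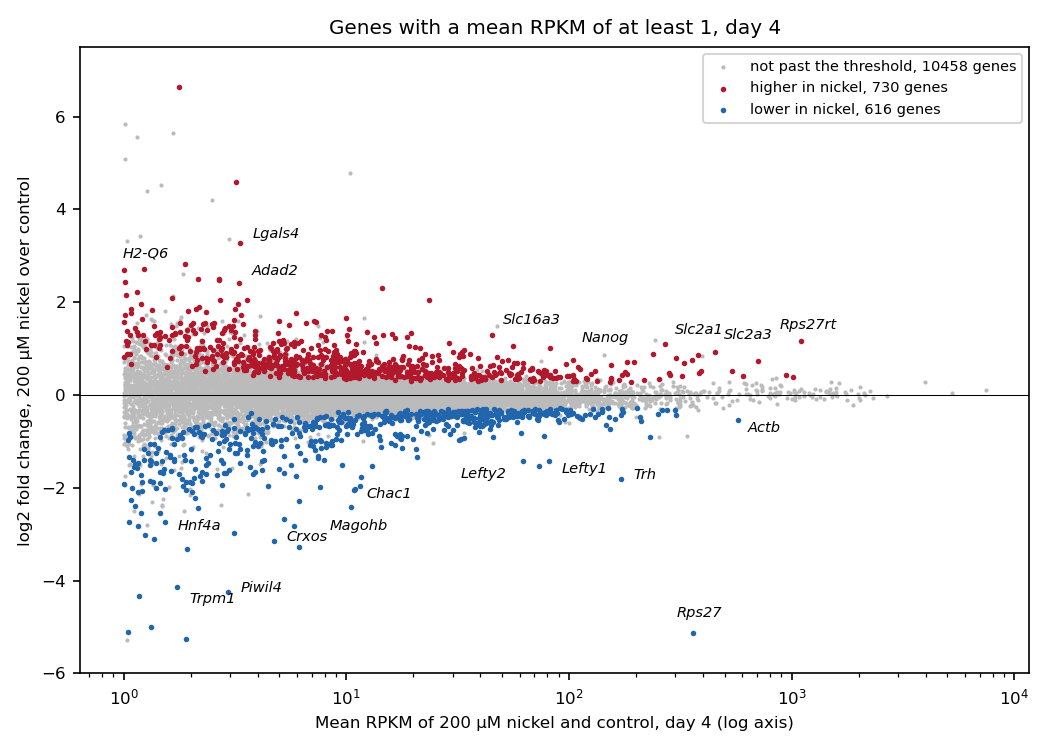
Each point is 1 gene tested on day 4 with a mean RPKM of at least 1. The horizontal log axis is the mean RPKM of both groups and the vertical axis is the authors' log2 fold change, 200 µM nickel over control. Red marks the 730 genes that rose and blue the 616 that fell, and 2 genes below the frame are not drawn. Lefty1, Lefty2, Chac1 and Piwil4 lie far below 0, and Slc16a3, Slc2a1, Slc2a3 and Nanog above it.

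Genes that carry sugar into the cell and lactate out of it rose most clearly. Of 27 tested HIF target genes of glucose use, 11 rose and 0 fell, with a median log2 fold change of 0.29. The lactate exporter gene Slc16a3 stood at RPKM 63.5 in nickel against 27.1 in control in the authors' deposited table (1.30 ± 0.12, 2.45-fold, adjusted p = 3e-22). The glucose transporter gene Slc2a1 stood at 362 against 177 in that table (2.14-fold, adjusted p = 6.57e-27), and its relative Slc2a3 at 589 against 321 (0.93 ± 0.09, adjusted p = 1.93e-22). Both transporters were about doubled, a larger change than that of any glycolytic enzyme gene of the list. In the enzyme chain itself, the gene of the regulator Pfkfb3 rose to 5.15 against 2.97, that of liver phosphofructokinase, Pfkl, to 130 against 89.3, and that of glycogen synthase, Gys1, to 13 against 9.26. Lower in the pathway the changes were small: Aldoa stood at 1130 against 904, Eno1 at 676 against 528, Tpi1 at 322 against 242 and Pgk1 at 169 against 139, and these 4 genes rose. The 3 most abundant members that did not pass were Gapdh at 1740 against 1530 (adjusted p = 0.121), Pkm at 1610 against 1390 (adjusted p = 0.115) and Ldha at 897 against 736 (adjusted p = 0.0928).

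Over all genes tested, 1.04% passed at 100 µM (0.576% higher and 0.462% lower), 6.75% at 150 µM (3.44% higher and 3.32% lower) and 9.47% at 200 µM on day 6 (4.99% higher and 4.48% lower). In dose order on day 4, control, 100, 150 and 200 µM, the authors' deposited tables gave Slc16a3 an RPKM of 27.1, 41.7, 51 and 63.5. Slc2a1 had 177, 247, 300 and 362 in the same order. Each step up in dose went with a higher level of both transporter genes, and the 3 nickel values of each are set against the same untreated libraries. The glucose use list as a whole did not step up from 150 to 200 µM. Of its 27 genes 4 rose at 100 µM, 14 at 150 µM and 11 at 200 µM, and 0 fell at any dose. Its median log2 fold changes were 0.15, 0.28 and 0.29 in that order. On day 6, with other libraries, Slc16a3 stood at 64.1 in nickel against 31.3 in control and Slc2a1 at 329 against 200.

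The promoters of the 2 genes with the largest rise in each HIF target list are shown with the letters that HIF is known to bind, whether or not these were found. The core letters ACGTG and GCGTG, searched on both strands, are in capitals in the stretch from 250 bases before to 50 after the start site, as given by RefSeq on GRCm38.p6, the build of the authors' coordinates. For glucose use these are Slc16a3 at chr11:120948817-120949116, plus strand, and Slc2a1 at chr4:119108495-119108794, plus strand.
Slc16a3: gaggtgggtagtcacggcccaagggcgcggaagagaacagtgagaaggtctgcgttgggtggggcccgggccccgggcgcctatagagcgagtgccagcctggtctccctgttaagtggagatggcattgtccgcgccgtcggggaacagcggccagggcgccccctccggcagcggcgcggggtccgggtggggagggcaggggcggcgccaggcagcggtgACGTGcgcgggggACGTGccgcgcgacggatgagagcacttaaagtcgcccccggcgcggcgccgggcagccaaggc
Slc2a1: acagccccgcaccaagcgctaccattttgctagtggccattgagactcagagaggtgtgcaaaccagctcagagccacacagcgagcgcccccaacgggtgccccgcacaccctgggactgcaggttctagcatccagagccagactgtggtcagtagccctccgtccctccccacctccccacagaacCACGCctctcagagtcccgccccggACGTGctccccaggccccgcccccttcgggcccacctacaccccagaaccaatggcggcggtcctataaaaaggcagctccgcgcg
The other pair, from the HIF targets outside glycolysis, is Egln3 at chr12:54203825-54204124, minus strand, and Bnip3 at chr7:138909457-138909756, minus strand, in which the motifs overlap one another.
Egln3: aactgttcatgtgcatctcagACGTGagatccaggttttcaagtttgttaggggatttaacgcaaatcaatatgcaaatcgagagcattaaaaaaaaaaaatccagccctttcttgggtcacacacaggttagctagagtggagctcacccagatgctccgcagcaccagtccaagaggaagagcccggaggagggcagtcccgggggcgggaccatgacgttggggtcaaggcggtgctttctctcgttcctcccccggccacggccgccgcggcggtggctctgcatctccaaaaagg
Bnip3: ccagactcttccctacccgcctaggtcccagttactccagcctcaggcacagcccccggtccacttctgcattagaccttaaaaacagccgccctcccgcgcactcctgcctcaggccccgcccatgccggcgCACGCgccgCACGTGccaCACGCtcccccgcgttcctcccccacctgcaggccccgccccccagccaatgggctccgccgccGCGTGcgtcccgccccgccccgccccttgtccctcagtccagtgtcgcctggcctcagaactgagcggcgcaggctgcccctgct
These letters are common: 56.7% of 14988 tested genes with a RefSeq promoter hold at least 1 of them in this window. Among 26 promoters of the glucose use list 19 hold one, and among 26 of the other HIF targets 21 do. A match is a description of the letters and not a binding site.

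Of the 33 other HIF targets tested, 6 rose and 2 fell, with a median log2 fold change of 0.24. Egln3, which encodes one of the oxygen-sensing prolyl hydroxylases, stood at RPKM 15.3 in nickel against 8.36 in control in the authors' deposited table (0.92 ± 0.19, adjusted p = 7.17e-05). Bnip3, a gene of mitochondrial clearance, had 68.8 against 44.7 in that table (0.69 ± 0.13, adjusted p = 1.5e-05). Vegfa, the vessel growth factor gene, rose to 23.3 against 16.2, Ero1a, an oxidase gene of the endoplasmic reticulum, to 20.9 against 14.3, and Kdm3a, a histone demethylase gene, to 59.8 against 47.3. Ndrg1 was among the members that fell, at 4.15 against 6.95 (-0.69 ± 0.22, adjusted p = 0.0247). Of 11 HIF subunit and oxygen-sensing hydroxylase genes, Egln3 rose and Hif1a, the gene of the main HIF subunit, fell to 19.9 in nickel against 26.8 in control (-0.39 ± 0.12, adjusted p = 0.0162). Arnt, the gene of the HIF1 partner, had 42.2 against 36.4 and did not pass (adjusted p = 0.0928).

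Genes of enzymes that hydroxylate and cross-link collagen were among those that rose. Of 20 tested collagen-modifying genes, 8 rose and 0 fell, and their median log2 fold change was 0.57. The lysyl hydroxylase gene Plod2 stood at RPKM 42.3 in nickel against 24.6 in control in the authors' deposited table (0.84 ± 0.12, adjusted p = 1.1e-10). The prolyl 4-hydroxylase subunit genes P4ha2 and P4ha1 stood at 13.3 against 7.72 and at 23.6 against 14.6 in that table, and the prolyl 3-hydroxylase gene P3h1 at 16.8 against 10.3. Plod1, Colgalt1, Loxl2 and P4hb also rose, all to less than 1.6-fold. The collagen chaperone gene Serpinh1 did not pass, with 19.5 against 24.1 (adjusted p = 0.504). At 100 µM none of the 20 genes passed in either direction, and at 150 µM 4 rose.

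Among the collagens themselves, 4 of 33 tested genes rose and 2 fell (18.2% called, beside 7.92% of all genes tested). Col9a2 stood at RPKM 17.7 in nickel against 7.17 in control in the authors' deposited table (1.36 ± 0.16, 2.57-fold, adjusted p = 2.86e-15). The basement membrane chains Col4a1, at 13.9 against 9.31, and Col4a2, at 6.8 against 4.55, rose by nearly the same factor. Of 27 basement membrane and matrix genes 6 rose and 2 fell: the perlecan gene Hspg2 rose to 48.6 against 29.2, the nidogen gene Nid1 to 38.2 against 25.9, and the laminin chain gene Lamb2 to 8.3 against 5.09. The epithelial laminin chain genes Lama3 and Lamb3 fell, Lama3 to 0.491 in nickel against 2.21 in control (-1.88 ± 0.33, adjusted p = 1.42e-06). Fibronectin, Fn1, had 160 in nickel against 162 in control (adjusted p = 0.901).

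Chaperones of the endoplasmic reticulum, which fold secreted proteins, were higher in part: 7 of 24 tested genes rose and 1 fell, with a median log2 fold change of 0.29. Calr, the calreticulin gene, stood at RPKM 378 in nickel against 227 in control in the authors' deposited table (0.80 ± 0.10, adjusted p = 6.49e-13), and Hspa5, which encodes BiP, at 186 against 124 (0.65 ± 0.10, adjusted p = 1.15e-07). The member that fell was Herpud1, a gene of protein degradation at the reticulum, at 4.68 in nickel against 10.7 in control (-1.14 ± 0.27, adjusted p = 0.000821). Of 26 cytosolic and mitochondrial heat shock genes 2 rose and 0 fell (7.69% called, beside 7.92% of all genes tested). They were the near-identical pair Hspa1a and Hspa1b, whose reads could be split between copies. They stayed low, Hspa1b at 1.54 in nickel against 0.317 in control. Of the 24 members with a mean RPKM of at least 1, 0 rose and 0 fell, beside 11.4% called among all such genes. Hsp90aa1 had 939 against 840 (adjusted p = 0.176).

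**Figure D2:**
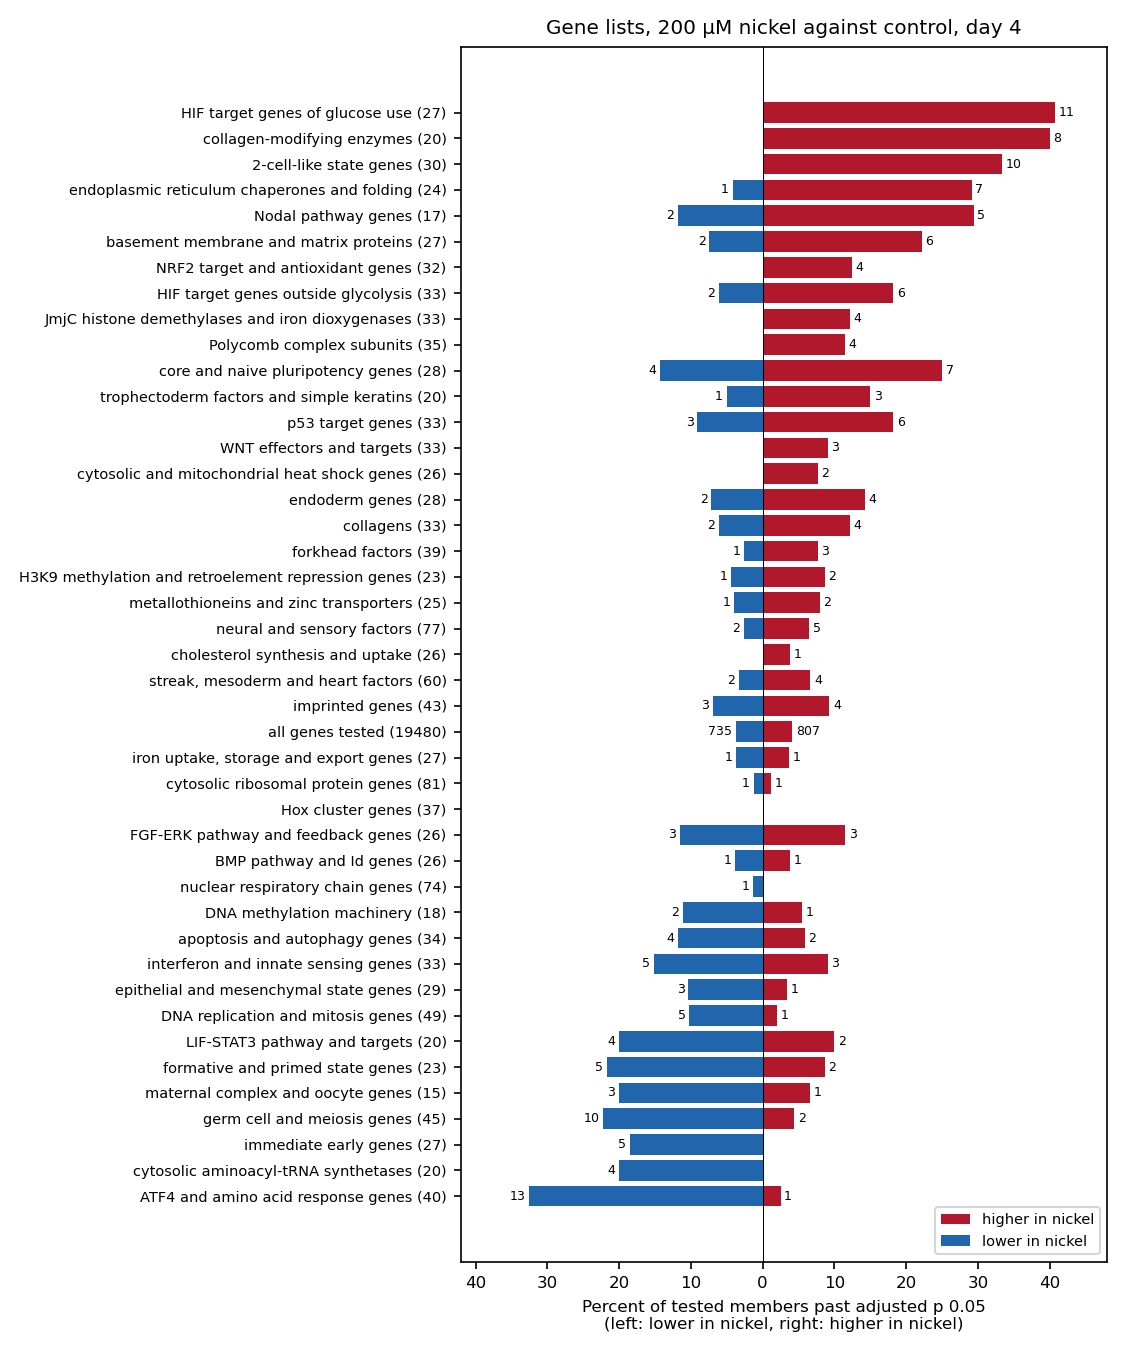
Bars give the percent of tested members past an adjusted p of 0.05 for 42 gene lists with at least 15 tested members and for all genes tested, with the number tested in brackets and the number of genes at each bar end. Bars to the right are members higher in 200 µM nickel and bars to the left members lower in nickel. HIF targets of glucose use, collagen-modifying enzymes and 2-cell-like state genes have bars to the right only, and the ATF4 list has 13 members lower and 1 higher.

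The opposite direction was seen for genes driven by ATF4, the transcription factor of amino acid shortage and the integrated stress response. Of 40 tested genes 13 fell and 1 rose, with a median log2 fold change of -0.25. The glutathione-degrading enzyme gene Chac1 fell furthest, to RPKM 4.09 in nickel against 17.6 in control in the authors' deposited table (-2.05 ± 0.28, 4.14-fold lower, adjusted p = 3.16e-11). Atf4 itself fell to 112 against 181 (-0.64 ± 0.11, adjusted p = 1.08e-06), and Ddit3, which encodes the stress factor CHOP, to 4.99 against 11.2 (-1.12 ± 0.33, adjusted p = 0.0131). Genes of serine synthesis and one-carbon metabolism were among the falls: Phgdh stood at 30.6 against 50.4, Psat1 at 114 against 157 and Mthfd2 at 35 against 54. Amino acid carrier genes fell as well, Slc1a4 to 8.73 against 15.3, Slc7a5 to 48.4 against 64.4 and Slc3a2 to 70.2 against 94.3. The member that rose was Ddit4, which is a HIF target too, at 90 against 69.3. Asns, the asparagine synthetase gene, had 165 against 182 and did not pass (adjusted p = 0.726). Of 20 tested genes of cytosolic aminoacyl-tRNA synthetases, the enzymes that load amino acids on tRNA, 4 fell and 0 rose, Sars to 45.9 against 71.4 and Nars to 107 against 155.

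Chac1 did not follow the dose: the authors' deposited tables gave RPKM 17.6 in control, then 4.74, 3.4 and 4.09 at 100, 150 and 200 µM. The list members that fell numbered 11 at 100 µM, 18 at 150 µM and 13 at 200 µM, each set against the same untreated libraries. The promoters of the 2 members with the largest fall are shown with the composite letters TGATGNA, searched on both strands, in capitals: Chac1 at chr2:119350992-119351291, plus strand, holds 1 match on its minus strand, and Ddit3 at chr10:127290543-127290842, plus strand, holds none in this window.
Chac1: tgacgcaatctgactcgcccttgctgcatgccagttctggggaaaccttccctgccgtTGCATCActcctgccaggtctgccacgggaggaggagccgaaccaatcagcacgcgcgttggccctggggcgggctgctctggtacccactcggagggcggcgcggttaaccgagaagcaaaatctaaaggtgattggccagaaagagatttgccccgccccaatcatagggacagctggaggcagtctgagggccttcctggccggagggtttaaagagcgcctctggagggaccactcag
Ddit3: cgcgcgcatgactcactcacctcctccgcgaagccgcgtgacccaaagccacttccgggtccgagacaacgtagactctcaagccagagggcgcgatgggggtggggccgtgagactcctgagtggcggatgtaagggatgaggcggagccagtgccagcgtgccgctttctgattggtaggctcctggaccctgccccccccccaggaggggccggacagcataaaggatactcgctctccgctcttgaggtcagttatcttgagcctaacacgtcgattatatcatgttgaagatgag
The composite letters stand in 8.28% of the 14988 promoters, in 17 of 34 promoters of the ATF4 list and in 6 of the 12 that fell and have a promoter sequence.

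Genes that answer metals themselves moved little. The metallothionein genes Mt1 and Mt2, the usual transcriptional readout of zinc and cadmium, stood at RPKM 135 in nickel against 118 in control and at 282 against 229 in the authors' deposited table, and neither passed (0.26 ± 0.15, adjusted p = 0.343, and 0.36 ± 0.34, adjusted p = 0.613). On day 6 the same genes stood at 214 against 153 and at 475 against 322, with adjusted p = 0.000716 and 0.000178. The test of the difference between days did not pass for either (adjusted p = 1 for both). Of 25 metallothionein and zinc transporter genes, Slc30a7 and Slc39a7 rose, at 2.92 against 1.75 and 62.9 against 51.4, and Slc30a2 fell to 4.33 against 7.9. That is 12% called, beside 11.4% of all genes at a mean RPKM of at least 1. No letters TGCACNC or TGCGCNC of the metal response element stand in the promoters of Slc30a7 and Slc39a7, while 33.7% of all 14988 promoters hold them. Among 22 promoters of this list 14 hold them, that of Slc30a2 included. Of 27 iron genes 1 rose and 1 fell (7.41% called, beside 7.92% of all genes tested). Tfrc, the transferrin receptor gene, rose to 101 in nickel against 72.9 in control (0.53 ± 0.10, adjusted p = 7.24e-06), and Fbxl5, an iron-sensing ligase gene, fell to 21.2 against 28.8. Of 32 NRF2 target and antioxidant genes 4 rose and 0 fell (12.5% called, beside 11.4% of all genes at a mean RPKM of at least 1): the glutathione peroxidase genes Gpx4, at 482 against 277 (0.86 ± 0.10, adjusted p = 1.43e-13), and Gpx1, at 225 against 141, and the glutathione synthesis genes Gclc and Gss. The median log2 fold change of the list was -0.01, and Prdx1, a peroxiredoxin gene, at 624 against 645, did not pass (adjusted p = 0.958).

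Members of the pluripotency network moved in both directions. Of 28 core and naive pluripotency genes 7 rose and 4 fell, a share called of 39.3% against 7.92% of all genes tested, or 11.4% of those with a mean RPKM of at least 1. Nanog, at chr6:122707565-122714633, stood at RPKM 308 in nickel against 168 in control in the authors' deposited table (0.88 ± 0.09, 1.84-fold, adjusted p = 2.18e-18). Tet2, which encodes an enzyme that oxidises methylcytosine, stood at 29 against 16.3 (0.89 ± 0.11, adjusted p = 4.49e-13), and the germ cell and pluripotency regulator gene Prdm14 at 11.8 against 7.44. Klf4 rose to 85.4 against 64, whereas its relatives fell, Klf5 to 31.1 against 60.5 (-0.90 ± 0.16, adjusted p = 1.14e-06) and Klf2 to 57.7 against 86.1. Lin28a and the threonine dehydrogenase gene Tdh fell too. Sox2, at 277 against 292, and Zfp42, at 348 in both groups, did not pass (adjusted p = 0.954 and 0.828). In these bulk samples fewer cells of a state and less RNA per cell cannot be told apart.

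Of 23 genes of the later, formative and primed state 5 fell and 2 rose. Lists overlap here: Lefty1 and Lefty2 also stand in the Nodal list, and Dnmt3a and Dnmt3b in the DNA methylation list. The de novo DNA methyltransferase genes Dnmt3a and Dnmt3b stood in the authors' deposited table at RPKM 11.6 in nickel against 23.1 in control and at 32.2 against 56.4 (-0.93 ± 0.12, adjusted p = 3.19e-13, and -0.74 ± 0.15, adjusted p = 8.69e-05). Dnmt3l, their catalytically inactive partner, had 243 against 214 with a wide error (0.25 ± 0.31, adjusted p = 0.72), and the maintenance enzyme gene Dnmt1 had 62.4 against 77.4 (adjusted p = 0.0928). Lef1, a WNT effector gene, was among the members that rose, to 6.34 against 3.39.

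Of 17 tested genes of the Nodal pathway 5 rose and 2 fell. The inhibitors Lefty1, at RPKM 43.2 in nickel against 120 in control, and Lefty2, at 32.7 against 92, had the largest changes of the list in the authors' deposited table (-1.41 ± 0.13, adjusted p = 4.46e-23, and -1.43 ± 0.11, adjusted p = 8.04e-34). The co-receptor gene Tdgf1 stood at 868 against 546 (0.73 ± 0.10, adjusted p = 1.23e-10), and the ligand-processing protease gene Pcsk6 at 16.9 against 10.8. The ligand gene Nodal itself, at 48.4 against 39.5, missed the threshold (0.35 ± 0.13, adjusted p = 0.0521). The inhibitor genes Smad7, at 23 against 25.8, and Skil, at 25.2 against 25.7, did not pass (adjusted p = 0.696 and 0.893). In dose order from control to 200 µM, Lefty1 had 120, 83.5, 59.3 and 43.2.

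Of 26 FGF-ERK genes 3 rose and 3 fell (23.1% called, beside 7.92% of all genes tested). The ligand genes Fgf4, at RPKM 129 in nickel against 79.6 in control (0.76 ± 0.10, adjusted p = 7.62e-13), and Fgf15, at 13.9 against 6.49, rose in the authors' deposited table. The third rise was Phlda1, at 2.64 against 1.22. The ERK feedback genes Spry2, at 29.9 against 49.6, Spry4, at 33.9 against 55.8, and Il17rd fell, and the ERK target gene Etv5, at 82.8 against 99, did not pass (adjusted p = 0.235). Immediate early genes, which ERK signalling induces within minutes, fell in 5 of 27 cases and rose in 0 (18.5% called). Fos stood at 0.982 against 3.43 (-1.74 ± 0.36, adjusted p = 0.000109) and Egr1 at 4.21 against 11.6 (-1.40 ± 0.24, adjusted p = 1.28e-06). Ier2, at 63 against 69.1, did not pass (adjusted p = 0.861). Of 20 LIF-STAT3 genes 4 fell and 2 rose (30% called). Socs2 and Socs3, feedback inhibitors of STAT3, fell to 11.6 against 21.6 and to 45.9 against 66.1, and Stat3 to 19.6 against 26.2.

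**Figure D3:**
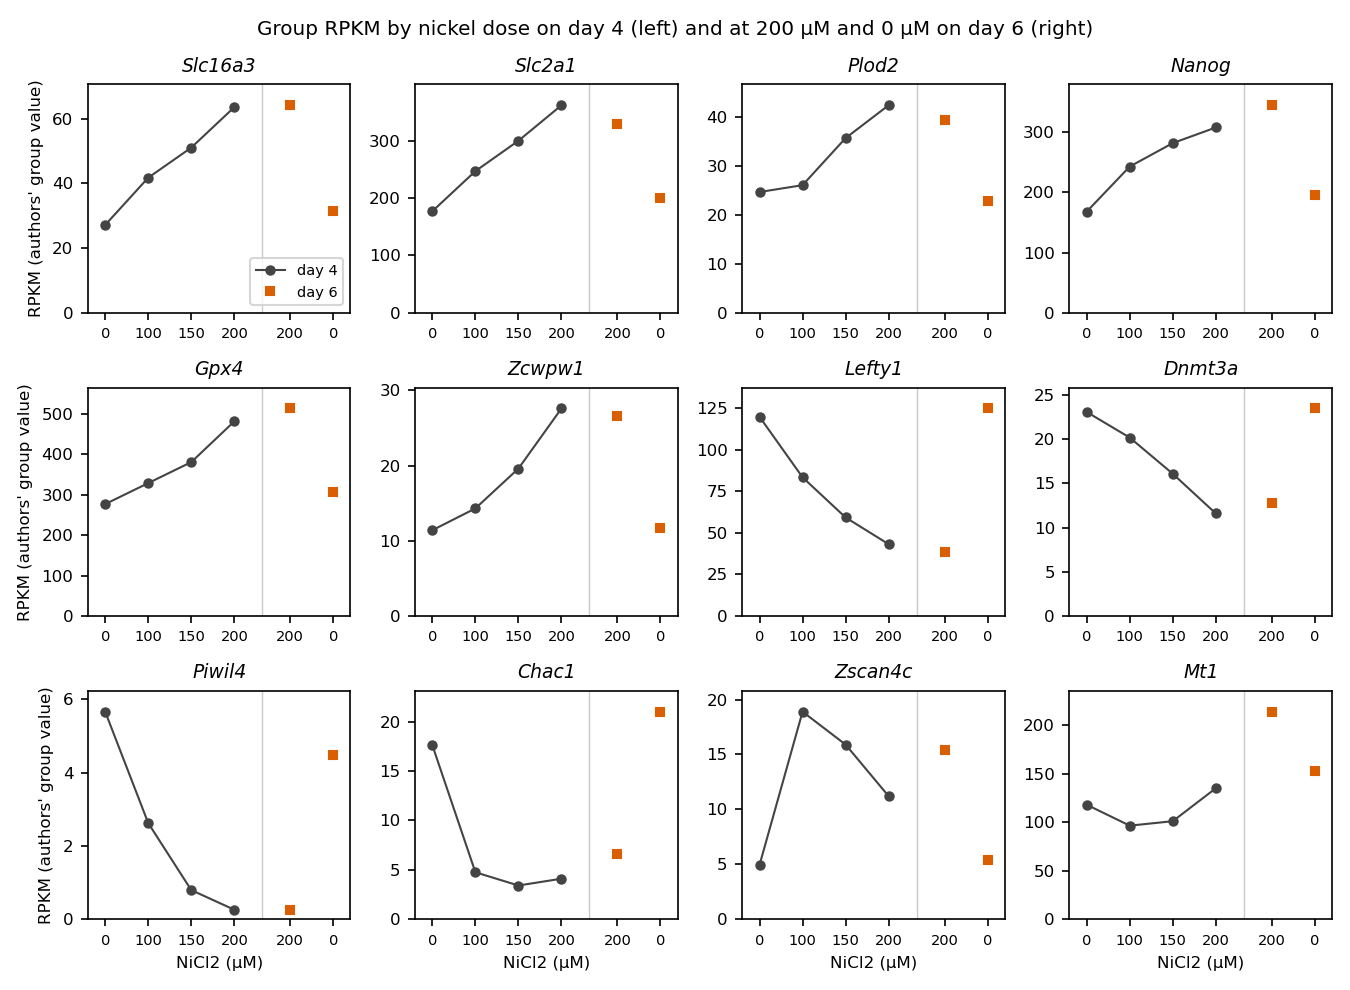
Group RPKM of 12 genes in the authors' deposited tables, each panel with an axis from 0. Connected circles are day 4 at 0, 100, 150 and 200 µM NiCl2, and squares are 200 µM and 0 µM on day 6; each point is 1 value per group without an error. Slc16a3 and Slc2a1 climb with dose, Lefty1 and Piwil4 fall with dose, Chac1 is low at every dose, Zscan4c is highest at 100 µM, and Mt1 differs little on day 4.

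A rare state of embryonic stem cells switches on genes of the 2-cell embryo. Of 30 tested genes of this list 10 rose and 0 fell, and its most abundant member, Eif1a, had RPKM 79 in nickel against 83.9 in control (adjusted p = 0.91). Tmem92 stood at RPKM 4.48 in nickel against 0.856 in control in the authors' deposited table (2.48 ± 0.36, 5.58-fold, adjusted p = 8.64e-10), and Arg2 at 3.29 against 0.955 (1.86 ± 0.56, adjusted p = 0.0157). Of the Zscan4 cluster, Zscan4c rose to 11.2 against 4.93 and Zscan4b to 7.87 against 3.8, and Zscan4d, at 16.2 against 7.75, did not pass (1.13 ± 0.63, adjusted p = 0.294). In dose order Zscan4d had 7.75, 29.2, 23.9 and 16.2, so that 200 µM gave the lowest of the 3 nickel values. At 100 and 150 µM 17 genes of the list rose each. The Zscan4 and Usp17l genes lie in clusters of near-identical copies, so reads may be split between members. Dux, which encodes the factor that starts this state, stood at 0.21 in nickel against 0.0729 in control and did not pass (adjusted p = 0.531).

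Of 45 tested germ cell and meiosis genes 10 fell and 2 rose. Piwil4, which encodes a piRNA-binding Argonaute of fetal germ cells, had the largest fall of the list, to RPKM 0.255 in nickel against 5.66 in control in the authors' deposited table (-4.24 ± 0.32, 18.9-fold lower, adjusted p = 4.27e-36). It lies at chr9:14701776-14740672. In dose order Piwil4 had 5.66, 2.62, 0.791 and 0.255, and on day 6 it stood at 0.24 in nickel against 4.48 in control. Among other genes of the list with a role in the piRNA pathway, Gtsf1 fell to 2.64 against 9.21, Tdrd5 to 0.594 against 1.61 and Piwil2 to 2.23 against 3.67, while Mael, at 18.9 against 22.6, did not pass (adjusted p = 0.531). The germ cell regulators Dazl, at 5.62 against 11.7, and Sohlh2, at 8.77 against 19.8, fell as well. The 2 genes that rose both act at meiosis: Zcwpw1, which encodes a reader of recombination sites, to 27.6 against 11.4 (1.34 ± 0.14, adjusted p = 1.25e-17), and Stra8, the retinoic acid target that starts meiosis, to 20.4 against 8.74. Of 15 tested maternal complex and oocyte genes 3 fell and 1 rose. Khdc3 fell to 11.2 against 30.2 and Nlrp14 to 0.407 against 2.5.

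Most developmental transcription factor genes, which the title of the series asks about, lay below a mean RPKM of 1. The 39 Hox genes gave 0 calls in either direction among 37 tested, and their summed RPKM was 8.83 in nickel and 5.61 in control. Of the 39, 3 were listed at 0 in nickel and 16 in control, at scaling totals that were higher in nickel. The highest, Hoxc13, stood at 1.7 against 1.51 (adjusted p = 0.788). Of 60 streak, mesoderm and heart factor genes 4 rose and 2 fell, and their summed RPKM was 49.5 in nickel and 50.1 in control. Tcf15, which did not pass, gave 28.8 in nickel and 33.1 in control of these sums (adjusted p = 0.727). Of 77 neural and sensory factor genes 5 rose and 2 fell, with sums of 51.6 in nickel and 49.8 in control, of which Tfap2c gave 17.9 and 19.8 (adjusted p = 0.802). The shares called, 10% and 9.09%, stand beside 7.92% of all genes tested, but most members lie below a mean RPKM of 1. At a mean RPKM of at least 1, 1 mesoderm gene rose and 2 fell of 8, and 2 neural genes rose and 2 fell of 10, beside 11.4% of all such genes. The median log2 fold changes of these 8 and 10 genes were 0.12 and 0.52. Over all tested members, most below a mean RPKM of 1, the medians were 0.54 and 0.93, and 2.23 for the Hox genes. Among all tested genes listed at 0 in control the median was 3.36. Gata4 had the highest nickel level among the mesoderm genes that rose, at 2.41 against 0.992 (1.33 ± 0.33, adjusted p = 0.00204), and Sox21 among the neural ones, at 4.29 against 2.42. Pax6 stood at 1.48 against 0.585 and Sox10 at 0.873 against 0.188 in the authors' deposited table. Other factor genes fell: Hnf4a, a liver and gut factor gene of the endoderm list, stood at 0.392 in nickel against 2.68 in control (-2.73 ± 0.35, adjusted p = 1.12e-12), Dbx2 at 0.339 against 2.06, and Neurod1 at 4.41 against 9.81.

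Few calls fell among genes that were near silent in control, with an RPKM under 0.2. Of 4836 tested, 46 rose and 11 fell. The 46 had a median RPKM of 0.437 in nickel, 42 of them stayed below 1, and the highest was the microRNA entry Mir3062 at 3.56. In the authors' deposited table Bdnf, the neurotrophin gene, was listed at 0 in control and at 0.224 in nickel (adjusted p = 0.000568), and the homeobox gene Tlx1 at 0 in control and at 0.263 in nickel (adjusted p = 0.00722). Wnt3 stood at 0.32 in nickel against 0.0286 in control (adjusted p = 0.015). The X inactivation RNA gene Xist, at 0.778 against 0.193, and the imprinting control RNA gene Kcnq1ot1, at 0.158 against 0.0406, were also among them (adjusted p = 1.06e-08 for each). Kcnq1ot1 overlaps Kcnq1 on the other strand, and the strand setting of the authors' counting is not given in the sources used here. Xntrpc and Cers1, which lead the near-silent rises, overlap another gene on the same strand, and Trpc2, whose span lies at the same locus as Xntrpc, was at 0 in nickel and at 0.397 in control.

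Histone-modifying machinery changed in few members. Of 33 genes of JmjC histone demethylases and related iron dioxygenases, enzymes of the class that nickel can inhibit, 4 rose and 0 fell. Kdm7a had the largest change, to RPKM 6.68 in nickel against 4.22 in control in the authors' deposited table (0.72 ± 0.17, adjusted p = 0.000622), and Kdm5b rose to 112 against 88.1. Of 35 Polycomb subunit genes 4 rose and 0 fell, none beyond 1.5-fold, and Ezh2 had 57.5 against 68.2 (adjusted p = 0.288). Among 23 H3K9 methylation and retroelement repression genes, Trim28 rose to 621 against 456 and Ehmt2, which encodes G9a, to 43.9 against 34.2, and Atf7ip fell to 23.1 against 31.1. The shares called, 12.1%, 11.4% and 13% of all tested members, are close to the 11.4% of genes with a mean RPKM of at least 1. That level was reached by 31, 33 and 23 members of the lists, all called members among them.

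Of 33 p53 target genes 6 rose and 3 fell (27.3% called, beside 11.4% of all genes at a mean RPKM of at least 1). In the authors' deposited table Pmaip1, an apoptosis gene, stood at RPKM 19.9 in nickel against 13.1 in control, and Gadd45a at 49.8 against 36.1, while Cdkn1a, the cell cycle inhibitor gene, had 35.6 against 42.7 and did not pass (adjusted p = 0.393). Btg2 was among the 3 that fell, at 17.2 in nickel against 24.7 in control (adjusted p = 0.00688). The median log2 fold change of the list was 0.08. Of 49 replication and mitosis genes, all at a mean RPKM of at least 1, 5 fell and 1 rose, which is 12.2% beside 11.4% of all such genes. Plk1, the mitotic kinase gene, fell to 54.5 against 78.4 and Rfc4 to 40.7 against 61.1, and Mki67, at 30.6 against 33.6, did not pass (adjusted p = 0.757). Of 74 nuclear respiratory chain genes 0 rose and 1 fell (1.35% called), Uqcrfs1 to 64.9 against 89.9, and of 26 cholesterol genes 1 rose (3.85% called). Of 81 cytosolic ribosomal protein genes the near-identical pair Rps27 and Rps27rt were the 2 that passed, at the same place on chromosome 3. Rps27 was listed at 14.2 in nickel against 706 in control and Rps27rt at 1500 against 701 in the authors' deposited table, while their sum was 1514 against 1407, 1.08-fold.

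Among genes with a mean RPKM of at least 1, and leaving out symbols of predicted or unnamed genes, the microRNA entry Mir3062, which overlaps Pfas, led the rises; it was listed at 3.56 in nickel and at 0 in control. The next were Lgals4, a galectin gene with a near copy in Lgals6, at RPKM 6.01 in nickel against 0.651 in control (3.28 ± 0.48, adjusted p = 1.69e-09), and the class I histocompatibility gene H2-Q6 at 3.28 against 0.493 (2.83 ± 0.53, adjusted p = 7.88e-06). Adad2, a testis gene of RNA-binding proteins, stood at 5.53 against 1.08, and the myelin protein gene Pmp22 at 1.71 against 0.327. Histone genes H4c18 and H2bc3, at 4.53 against 0.833 and 3.64 against 0.681, were among the 15 largest rises, as were Tmem92 of the 2-cell list and Pramel16, a member of a family of near copies. Of 65 tested histone genes, grouped by symbol after the values were seen, 3 rose and 0 fell in this poly(A)-selected RNA. That is 4.62% called, beside 7.92% of all genes tested. The falls were led by Rps27, Wfdc15a, Piwil4 and Trpm1, a cation channel gene, at 0.16 in nickel against 3.31 in control (-4.13 ± 0.43, adjusted p = 1.89e-18). Crxos fell to 0.858 against 8.57, Plac8 to 1.38 against 10.3, Rab3il1 to 1.36 against 9.18 and Magohb, a gene of the exon junction complex, to 3.2 against 17.7. Among abundant transcripts Actb, the cytoplasmic actin gene, fell to 457 against 690 (-0.53 ± 0.13, adjusted p = 0.00148), and Trh, the thyrotropin-releasing hormone gene, to 73.3 against 270 (-1.81 ± 0.41, adjusted p = 0.000355).

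The shares called in the other lists ranged widely, beside 7.92% of all genes tested. Of 18 DNA methylation genes 1 rose and 2 fell, of 28 endoderm genes 4 rose and 2 fell (21.4% called), and of 39 forkhead genes 3 rose and 1 fell. Of 20 trophectoderm genes 3 rose and 1 fell (20% called), with Krt8, a simple keratin gene, at RPKM 3.95 in nickel against 2.15 in control in the authors' deposited table. Of 43 imprinted genes 4 rose and 3 fell: Zfp57, which encodes a guardian of imprints, stood at 235 against 156, and Impact at 21.5 against 38.9. Of 33 WNT genes 3 rose, and of 26 BMP genes 1 rose and 1 fell. Of 29 epithelial and mesenchymal genes 1 rose and 3 fell, among them Cdh1, the E-cadherin gene, at 71.6 against 92.2. Of 34 apoptosis and autophagy genes 2 rose and 4 fell (17.6% called), with Mcl1, a survival gene, at 205 against 151 and Sqstm1, an autophagy receptor gene, at 57.7 against 88.2.

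The changes of day 4 were set against 200 µM on day 6, which shares no library with them. Of the 807 genes that rose on day 4, 483 also rose on day 6, which is 59.9% of the day 4 list and 48.2% of the 1002 genes of day 6. Of the 735 that fell, 458 also fell on day 6, 62.3% of the day 4 list and 50.9% of the 899 of day 6. The sign was the same on day 6 for 793 of the genes that rose and 724 of those that fell. One gene, Gm20604, was called in opposite directions. A z test of the difference between the 2 days passed an adjusted p of 0.05 for 9 of 18889 genes (0.0476%), and 369 had an unadjusted p under 0.05. Whether cells of day 4 and day 6 came from the same cultures is not given in the sources used here.

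**Figure D4:**
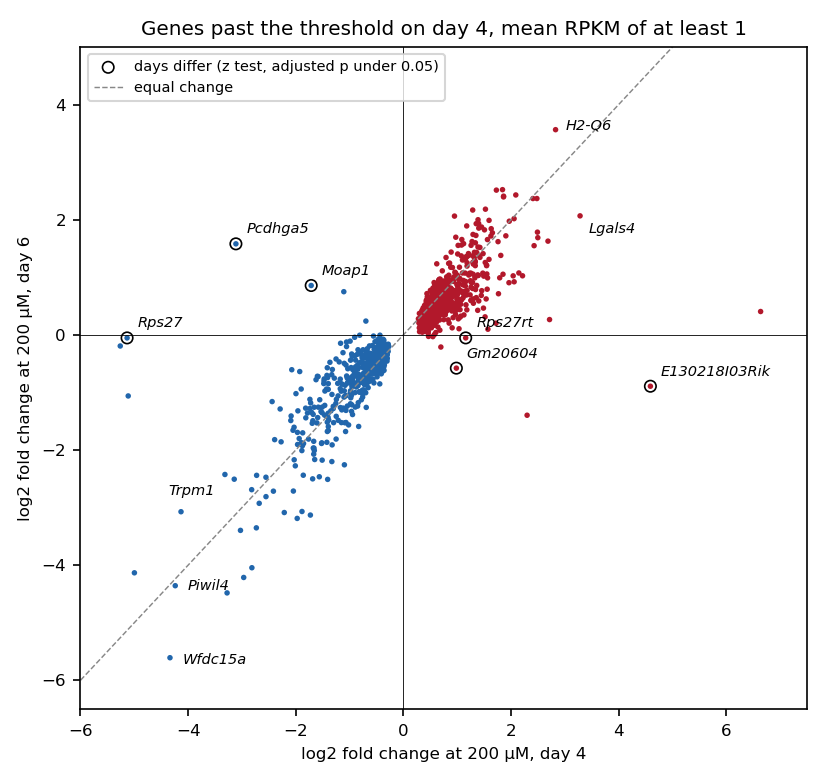
Each point is 1 of 1346 genes past the threshold on day 4 with a mean RPKM of at least 1. The horizontal axis is the authors' log2 fold change at 200 µM on day 4 and the vertical axis that on day 6. Red genes rose and blue genes fell on day 4, the dashed line marks equal change, circles mark genes whose change differed between days, and 1 gene lies outside the frame. Piwil4, Trpm1 and Lgals4 have the same sign on both days, Pcdhga5, Moap1 and Gm20604 have opposite signs, and Rps27 lies near 0 on day 6.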

How the data were processed

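RNA of E14Tg2A cells was sequenced from 2 libraries per group. The submitters' processing notes name the aligner STAR, the tool DESeq2 and the build GRCm38. Their versions and the strand setting of counting are not given. For each comparison the authors deposited 26239 genes with an RPKM for either group. The deposited columns also hold log2 fold changes with raw and adjusted p-values, and the libraries of a group are pooled in that RPKM. No count per library was used, so no new test per gene was made: the authors' adjusted p was counted at 0.05. Genes with log2 fold change 0 and p-value 1 were taken as untested. The standard error was implied by fold change and p-value, taken as normal.

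The difference between day 4 and day 6 at 200 µM was taken from a z test on these errors (two-sided, Benjamini-Hochberg adjusted). The test was also run on simulated data drawn with normal errors of the implied size. Such data cannot show whether the implied errors themselves are right. Members and the 48 lists were chosen with earlier results of these data known, and lists carry no test. Some genes stand in several lists, so their counts are not independent. Named genes follow a rule: the 15 largest rises and falls at mean RPKM of at least 1, without predicted or unnamed symbols, up to 6 called and 3 uncalled members per list, 8 near-silent rises and 10 largest RPKM differences, 5 day differences each way and 12 fixed genes; a part is given, and a few other genes were chosen after their values were seen. Some genes the rule names are not reported here. Scaling totals came from RPKM steps of single-exon genes (GENCODE M21), and 99.1% of low values in nickel and 98.8% in control lay on whole-read steps within 0.8%; these were not tied to replicate letters. Promoters are from RefSeq, GRCm38.p6; 19520 genes of the table matched by symbol. Python 3.11.15, pandas 2.3.3 and scipy 1.17.1 were used.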

Additional observations from a re-analysis of the deposited data

Results flagged for a closer look

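The effect of 200 µM nickel differed between day 4 and day 6 for 9 genes by the z test, and most of them overlap or duplicate another gene. Rps27 and Rps27rt, near-identical copies, had differences, day 4 minus day 6, of -5.08 and 1.21 on the log2 scale (adjusted p = 2.08e-175 and 1.29e-09). Pcdhga5 had -4.69, and Gm37013, whose span covers it, 8.74. Moap1 had -2.57, and Gm20604, which overlaps it on the same strand, 1.56. Rsc1a1, which overlaps Ddi2 on the same strand, had 5.09, and Xntrpc, which overlaps Xndc1, had 10.5. E130218I03Rik had 5.48 and overlaps Zfp593 on the other strand.

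The levels behind these differences move with the untreated groups as well as with nickel. The authors' deposited tables listed Pcdhga5 at RPKM 0.277 in nickel against 2.47 in control on day 4, and at 0.245 in nickel against 0.0838 in control on day 6. Rsc1a1 stood at 1.42 against 0.464 on day 4 and at 0.589 against 6.25 on day 6. Moap1 stood at 1.06 against 3.64 on day 4 and at 1.7 against 0.957 on day 6. How the authors' counting shares reads between overlapping genes was not tested.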

How the results depend on the processing

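At an adjusted p under 0.01, 864 genes passed (435 higher and 429 lower), and 147 list members instead of 221. At an adjusted p under 0.05 together with a log2 change of at least 1 in size, 511 passed (232 higher and 279 lower). Counts stayed within 1.5 times under adjustment over all tested genes (1414), at a mean RPKM of at least 1 (1346) and centred on the median (1525). The day difference gave 7 genes in place of 9 at a mean RPKM over 4 groups of at least 1. As a log2 RPKM ratio with a pseudocount of 0.1, 19 of 219 called named genes moved by more than their implied error, and 88 with a pseudocount of 1, none with a change of sign. No paired analysis was possible because the tables give 1 value per group, and leaving out a replicate was not possible for the same reason. Depth limits genes under an RPKM of 0.2.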

Other observations

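Some gene groups outside the lists were chosen after their values were seen, so they are values without a test of the group. Class I histocompatibility genes by symbol rose in 7 of 22 tested cases and fell in 0 (31.8% called, beside 7.92% of all genes tested). In the authors' deposited table H2-Q4 stood at RPKM 6.77 in nickel against 3.18 in control, H2-Bl at 5.15 against 1.37, H2-D1 at 9.93 against 5.29 and H2-K1 at 20 against 13.4, while their partner B2m had 10.5 against 14.9 (adjusted p = 0.233). These genes are near copies of one another. On day 6, 9 of 20 tested rose, beside 4.99% of all genes tested. Of 33 interferon and innate sensing genes tested, 3 rose and 5 fell (24.2% called). Those that rose were H2-D1, H2-K1 and Stat2. Among the others, Ifitm3 fell to 112 against 194, Ifit2 to 0.386 against 1.12 and Cxcl10 to 0.0239 against 0.705.

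The mitochondrial ribosomal RNAs parted in the authors' deposited table: mt-Rnr1 rose to RPKM 452 in nickel against 330 in control (0.51 ± 0.12, adjusted p = 0.000647), and mt-Rnr2 fell to 157 against 306 (-0.90 ± 0.11, adjusted p = 2.87e-14). On day 6 they stood at 331 against 252 and at 137 against 210. Of the 13 mitochondrial protein genes, mt-Nd6 alone passed, at 1060 against 823, and it overlaps mt-Nd5 on the other strand.

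Other changes at high levels in the authors' deposited table, chosen after their values were seen, were Pttg1, the securin gene, at RPKM 36 in nickel against 111 in control (-1.53 ± 0.15, adjusted p = 4.8e-20), the receptor gene Kit at 39 against 18.8 (1.12 ± 0.11, adjusted p = 1.04e-22), Igfbp2 at 443 against 273 and Upp1, the uridine phosphorylase gene, at 401 against 258. Each passed on day 6 in the same direction.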
